A study of Homo sapiens with 30 samples.

Results

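The mRNA levels of 10 chemokine genes, CXCL1, CXCL2, CXCL3, CXCL5, CXCL6, CXCL8, CXCL16, CCL2, CCL20 and CCL5, were followed in human 5637 cells, a bladder cancer line. The genes were taken by name, by symbol in the ANKRD10 tables and by Ensembl identifier in the knockout table. All 10 were listed in each of the 3 count tables, which held 60612 genes for the RBPMS knockouts and 56303 genes each for ANKRD10 overexpression and ANKRD10 knockdown. RNA-seq covered 30 libraries in 10 groups of 3. In the knockout table, the groups KO1 and KO2 were lines in which RBPMS, an RNA-binding protein, was disrupted with separate guide RNAs. Each was compared with the control group of the same number, WT1 or WT2. This pairing was taken from the numbers in the labels, and the study's text names sgCtrl as the control of both. In the overexpression table, cells carried an empty plasmid (Vector) or a plasmid for the ANKRD10-1 or ANKRD10-2 splice form of ANKRD10. In the knockdown table, cells received a control siRNA (siNC) or an siRNA against either splice form (siANKRD10-1, siANKRD10-2). The cells grew in serum-containing medium, and siRNAs and plasmids were delivered by lipid transfection. The study's discussion says that the knockouts were expanded from single clones, so a line may stand for 1 clone. The study's text places ANKRD10-1 overexpression and siANKRD10-2 in cells already knocked out for RBPMS, while the labels name 5637 cells alone and each table has 1 control group, so the background of these groups against their control was not settled. RBPMS mRNA had group means of 4.49 to 5.28 CPM (counts scaled to a library total of 1000000) in the 6 groups of the ANKRD10 tables, against 41.0 in WT1 and 14.7 in KO1 of the knockout table, which was counted separately. Its log2 change was -0.19 (SE 0.14) with ANKRD10-1 against Vector and 0.03 (SE 0.14) with siANKRD10-2 against siNC, where KO1 and KO2 fell by 1.44 and fell by 1.09 against their controls.

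Chemokines are small secreted proteins that draw leukocytes along a gradient. CXCL1, CXCL2, CXCL3, CXCL5, CXCL6 and CXCL8 carry a glutamate-leucine-arginine motif before their first cysteines and act through the receptors CXCR1 and CXCR2, which are known for recruiting neutrophils. The other 4 genes act mainly on other cells: CXCL16 acts through CXCR6, CCL20 through CCR6 and CCL2 through CCR2 on monocytes, while CCL5 draws T cells and monocytes. The description as neutrophil attractants therefore holds for 6 of the 10. In epithelial cells, interleukin-1 and tumour necrosis factor are known to induce most of these genes through NF-kappaB, a transcription factor that binds kappaB sites in their promoters, and their mRNAs are known to be short-lived.

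The 6 CXCR1 and CXCR2 ligands lie within 1 stretch of chromosome 4. The overexpression table places CXCL8 at chr4:73740506-73743716 on the plus strand, followed by CXCL6 at chr4:73836497-73849064 and CXCL1 at chr4:73869393-73871242, also on the plus strand. CXCL5 at chr4:73995642-73998779, CXCL3 at chr4:74036589-74038807 and CXCL2 at chr4:74097035-74099293 lie on the minus strand. CCL20 is on chromosome 2, and CXCL16, CCL2 and CCL5 are on chromosome 17. The promoter stretches around the kappaB matches are shown so that the sites of the co-located genes can be compared. They come from RefSeq promoters of the GRCh38.p14 build, 300 bases long and placed around RefSeq's gene start, and 7 of the 10 genes were matched. For CXCL2, CXCL3, CXCL5 and CXCL6 the positions given above reach further out than RefSeq's gene start. The stretches shown for these genes therefore lie inside those positions. Each is read 5′ to 3′ along the gene, with the 10 bases of the NF-kappaB consensus in capitals for CXCL1, CXCL2, CXCL3, CXCL5, CXCL6 and CCL20, where CCL20 holds the consensus on the opposite strand. For CXCL8, which did not hold the full consensus, the capitals mark the 9-letter core GGAATTTCC, searched for after the other matches had been seen.
CXCL1 (chr4:73869304-73869333, plus strand): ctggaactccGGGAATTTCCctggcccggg
CXCL2 (chr4:74099254-74099283, minus strand): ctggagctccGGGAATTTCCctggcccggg
CXCL3 (chr4:74038749-74038778, minus strand): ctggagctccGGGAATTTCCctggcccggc
CXCL5 (chr4:73998749-73998778, minus strand): catgagttcaGGGAATTTCCccagcatccc
CXCL6 (chr4:73836578-73836607, plus strand): cctgagttcaGGGAATTTCCccagcatccc
CXCL8 (chr4:73740468-73740496, plus strand): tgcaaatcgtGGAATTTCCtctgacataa
CCL20 (chr2:227813753-227813782, plus strand): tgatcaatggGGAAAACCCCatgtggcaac

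The windows of CXCL1 and CXCL2 shared 29 of 30 bases, as did those of CXCL2 and CXCL3 and those of CXCL5 and CXCL6, whereas CXCL1 and CXCL6 shared 18 of 30. Each window was placed on its match, so the capital bases, the same in all of these genes, are part of these counts. The consensus was present on either strand in 6 of the 7 promoters, and in 11.3% of all 35116 RefSeq promoters of the same length. In CXCL1, CXCL2, CXCL3, CXCL5 and CXCL6 the matches on both strands overlapped, because the site reads nearly the same on either strand. The core was present in 6 of 7 promoters and in 0.461% of all promoters. It was chosen after the consensus matches were seen and lies within them wherever both were found, so this count is no independent result. Of the other motifs, searched on both strands, AP-1 (TGANTCA) was found in CXCL8 and in 7.71% of all promoters, and C/EBP (TTGCNNAA) in CXCL2 and in 10.5%. The TATA box (TATAAA) was found in CXCL8 and CCL20 and in 11.5% of all promoters. The E-box CACGTG was found in 0 of 7 and in 7.26% of all, which says only that these letters are not in these windows.

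Total counts ran from 44593108 to 69723937 per library in the knockout table, from 31736779 to 47493499 with overexpression and from 28511029 to 32784584 with knockdown. The targeted genes followed their labels: RBPMS mRNA fell by 1.44 in KO1 and by 1.09 in KO2 on the log2 scale, ANKRD10 rose by 0.67 and 0.41 with the ANKRD10-1 and ANKRD10-2 plasmids, and it fell by 0.24 and 0.25 with siANKRD10-1 and siANKRD10-2. ANKRD10 mRNA also fell in the knockouts, with log2 changes of -1.18 in KO1 (SE 0.05) and -0.76 in KO2 (SE 0.04). ANKRD10 counts per gene do not separate its splice forms, so they do not check which form was targeted. Of 19 epithelial markers, 13 to 15 had a group mean of at least 1 CPM, whereas 1 or 2 of 20 leukocyte markers did. The summed leukocyte markers ranged from 2.15 to 4.38 CPM in the knockout table and from 13.8 to 27.6 CPM in the other tables, where CD68, which is not limited to leukocytes, reached a group mean of 23.2 CPM. The pan-leukocyte gene PTPRC stayed at or under 0.227 CPM in every group, and TYROBP was at 0 in every library.

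The chemokine mRNAs differed widely in abundance in the control cells. Levels between genes were compared as CPM per kilobase of annotated gene length. In WT1, CXCL8 was the most abundant at 109 ± 5.82 CPM per kb (SD, n = 3), followed by CXCL1 at 78.4 ± 0.377 and CXCL5 at 60.7 ± 1.72. CXCL2 at 21.2 ± 1.35 and CXCL3 at 12.3 ± 0.276 came next, and CXCL16 at 9.19 ± 0.959, CCL20 at 7.81 ± 0.469 and CXCL6 at 2.89 ± 0.300 closed the order. WT2 gave the same first 5 genes, although CXCL8 at 78.5 ± 12.7 and CXCL1 at 67.9 ± 5.42 lay within their SDs of each other there. CXCL5 led in the other controls, at 50.6 ± 3.28 CPM per kb in Vector and 82.1 ± 2.40 in siNC, with CXCL8 at 49.1 ± 1.57 within its SD in Vector. The tables were counted and normalised separately, so these levels are set side by side and not tested across tables. CXCL6 had a mean of 6.31 CPM in WT1 and 7.71 in WT2, against 0.741 in Vector and 0.205 in siNC. CCL2 never exceeded 10 counts in a library and CCL5 never exceeded 16. Both were at 0 in every WT1 library, and apart from CCL5 with ANKRD10-1 they stayed below the filter for testing and are given by their counts.

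The first question was how the chemokine genes responded to the loss of RBPMS. In both knockouts CXCL6 was nearly lost and CCL20 and CXCL1 rose, while CXCL8, CXCL2 and CXCL3 fell slightly in KO1 and rose 2.0-fold or more in KO2. Of the 8 genes that passed the filter on low counts, 2 rose and 4 fell in KO1, where 17.9% of 17865 genes tested rose and 18.2% fell. In KO2, 7 rose and 1 fell, where 19.3% of 18267 genes rose and 19.2% fell. The median log2 fold change of the 8 genes was -0.08 in KO1 and 0.98 in KO2, beside medians of -0.002 and -0.02 over all genes tested. Calls throughout are from edgeR's quasi-likelihood test at an adjusted p under 0.05, with standard errors (SE) on the log2 scale.

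**Figure D1:**
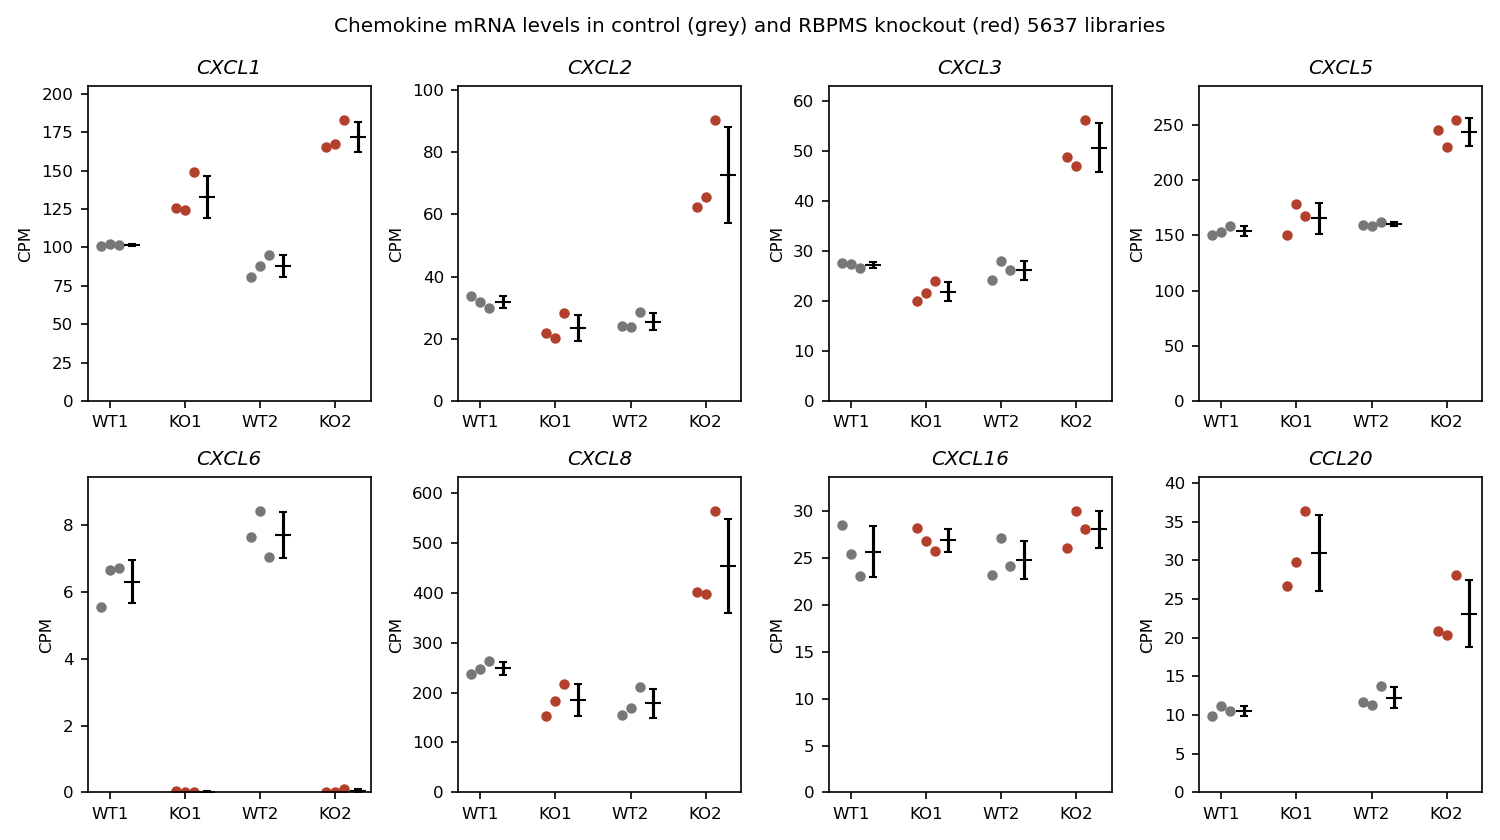
Level of 8 chemokine mRNAs in the RBPMS knockout table, in CPM on linear axes from 0. Each point is a library, grey for the controls WT1 and WT2 and red for KO1 and KO2, and the bar beside each set of 3 gives the mean and SD; CXCL6 lay at or near 0 in all 6 knockout libraries, and CXCL8, CXCL2 and CXCL3 rose in KO2 and not in KO1.

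CXCL6 encodes a CXCR1 and CXCR2 ligand that also has antibacterial activity. Its counts in the WT1 libraries were 282, 354 and 451, and those in the KO1 libraries were 3, 0 and 0. WT2 held 506, 460 and 492 counts, and KO2 held 0, 0 and 7. No knockout library came near a control library. Against a floor of 3 counts per library, CXCL6 was at least 112-fold lower in KO1 than in WT1 (adjusted p = 4.71e-07). In KO2 the fitted level was 178-fold lower than in WT2 (adjusted p = 2.48e-07), a ratio that rests on the 7 counts of replicate 3, since the other KO2 libraries held none. The difference between the knockouts in CXCL6 was not called, at -0.78 (SE 1.25, adjusted p = 0.698), and it was 3.53 without KO2 replicate 3, so its sign was not determined.

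CCL20, the ligand of CCR6 on dendritic cells and some lymphocytes, rose in both knockouts. Its levels were 9.85, 11.1 and 10.5 CPM in WT1 and 26.7, 29.8 and 36.3 CPM in KO1, a log2 change of 1.60 (SE 0.12, adjusted p = 2.92e-06). In WT2 it was at 11.7, 11.3 and 13.8 CPM and in KO2 at 20.9, 20.3 and 28.1 CPM, a log2 change of 0.96 (SE 0.13, adjusted p = 8.79e-05). The groups did not overlap in either pair. The rise was larger in KO1 by 0.64 (SE 0.19, adjusted p = 0.0263). That difference missed the threshold without KO1 replicate 3 (0.50, adjusted p = 0.0687), KO2 replicate 1 (0.57, 0.0709), KO2 replicate 2 (0.55, 0.0705), WT1 replicate 1 (0.58, 0.0704) or WT2 replicate 3 (0.54, 0.0777).

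CXCL1, known as a growth-regulated CXCR2 ligand, also rose in both. It was at 101.2, 102.2 and 101.6 CPM in WT1 and at 125, 124 and 149 CPM in KO1, a log2 change of 0.43 (SE 0.07, adjusted p = 0.00076). It was at 80.9, 88.1 and 94.9 CPM in WT2 and at 165, 167 and 183 CPM in KO2, a log2 change of 1.01 (SE 0.06, adjusted p = 1.21e-07). Every knockout library was above every control library. The rise was smaller in KO1 by 0.58 (SE 0.10, adjusted p = 0.000618).

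CXCL8, or interleukin-8, the best known neutrophil attractant of the group, moved in opposite directions. It was at 236, 247 and 263 CPM in WT1 and at 153, 183 and 218 CPM in KO1, and it fell by 0.38 on the log2 scale (SE 0.11, adjusted p = 0.0156). It was at 156, 169 and 211 CPM in WT2 and at 401, 397 and 563 CPM in KO2, a rise of 1.39 (SE 0.13, adjusted p = 5.76e-06). The knockout and control libraries did not overlap in either pair, and KO2 replicate 3 was the highest of all 12. The 2 effects differed by -1.78 (SE 0.20, adjusted p = 9.06e-06).

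CXCL2 and CXCL3, close relatives of CXCL1, followed CXCL8. CXCL2 was at 33.8, 31.7 and 29.8 CPM in WT1 and at 21.8, 20.3 and 28.3 CPM in KO1 (-0.39, SE 0.12, adjusted p = 0.0203). In WT2 it was at 24.2, 23.7 and 28.6 CPM, and in KO2 at 62.3, 65.4 and 90.4 CPM (1.56, SE 0.13, adjusted p = 1.52e-06). The KO2 libraries lay far above all others, and the KO1 libraries lay below WT1 but overlapped those of WT2. CXCL3 was at 27.7, 27.5 and 26.6 CPM in WT1 and at 20.02, 21.7 and 23.9 CPM in KO1 (-0.27, SE 0.08, adjusted p = 0.0237). It was at 24.2, 28.1 and 26.1 CPM in WT2 and at 48.8, 47.1 and 56.3 CPM in KO2 (1.00, SE 0.08, adjusted p = 9.45e-07). The effects of the knockouts differed by -1.95 for CXCL2 (SE 0.20, adjusted p = 2.46e-06) and by -1.28 for CXCL3 (SE 0.12, adjusted p = 1.06e-06).

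The controls of the knockouts also differed from each other in CXCL8. It was lower in WT2 than in WT1 by 0.48 (SE 0.09, adjusted p = 0.023), the only one of the 8 genes called there, where 1.23% of 18335 genes were called in either direction. The values that were not called were -0.32 for CXCL2 (adjusted p = 0.0881), -0.21 for CXCL1 (adjusted p = 0.116) and -0.06 for CXCL3 (adjusted p = 0.774). The CXCL8 call between the controls was lost without WT1 replicate 2 (adjusted p = 0.0966), WT1 replicate 3 (0.106), WT2 replicate 1 (0.0909) or WT2 replicate 2 (0.148), and without WT2 replicate 3 CXCL2 was called as well (-0.41, adjusted p = 0.0323). With all 6 WT libraries as the control, the KO1 value was -0.16 for CXCL8 (adjusted p = 0.433) and -0.24 for CXCL2 (adjusted p = 0.139), and CXCL3 still fell, by 0.24 (adjusted p = 0.0145). The KO1 call for CXCL2 was also lost without KO1 replicate 1 (adjusted p = 0.0865), KO1 replicate 2 (0.0569), WT1 replicate 1 (0.0777) or WT1 replicate 2 (0.0631). That for CXCL3 was lost without KO1 replicate 1 (0.093), WT1 replicate 1 (0.0689), WT1 replicate 2 (0.0821) or WT1 replicate 3 (0.0547), and that for CXCL8 without WT1 replicate 3 (0.0622).

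CXCL1, CXCL2 and CXCL3 are near-identical in places, and how reads with several matches were counted is not given in the sources used here. In Ensembl transcripts, 5.73% of the 50-base words of CXCL1 occurred in CXCL2 and 0.573% in CXCL3, and 4.62% of those of CXCL2 occurred in CXCL3. When the 3 genes were summed, KO1 gave a log2 change of 0.19 (adjusted p = 0.0593), the sign of CXCL1 and not that of CXCL2 and CXCL3. In WT1, CXCL1 had a mean of 101.6 CPM, beside 31.8 for CXCL2 and 27.3 for CXCL3. The sum therefore mainly follows CXCL1 and does not check the falls of CXCL2 and CXCL3.

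CXCL5, which attracts neutrophils through CXCR2, rose in KO2. It was at 160, 159 and 162 CPM in WT2 and at 246, 230 and 255 CPM in KO2, a log2 change of 0.65 (SE 0.04, adjusted p = 2.07e-07). In WT1 it was at 150, 153 and 159 CPM and in KO1 at 151, 178 and 167 CPM, groups that overlapped (0.15, SE 0.07, adjusted p = 0.107). Without KO1 replicate 1 the KO1 value was 0.22 (adjusted p = 0.0174). The knockouts differed by -0.50 (SE 0.08, adjusted p = 0.000309). CXCL16, a membrane-bound chemokine shed by proteases, changed least, by 0.22 in KO2 (SE 0.08, adjusted p = 0.037) and by 0.11 in KO1 (SE 0.08, adjusted p = 0.325). Its libraries ran from 23.1 to 28.5 CPM in the controls and from 25.7 to 29.97 CPM in the knockouts, and the KO2 call was lost without KO2 replicate 2 (adjusted p = 0.145), KO2 replicate 3 (0.0798), WT2 replicate 1 (0.142) or WT2 replicate 3 (0.108). CCL2 had 0 counts in all WT1 and KO1 libraries, 6, 0 and 5 in WT2 and 4, 0 and 5 in KO2. CCL5 had 0 counts in all 6 WT libraries, 0, 4 and 0 in KO1 and 7, 8 and 0 in KO2. In all, 6 of the 8 genes differed between the effects of the knockouts, where 23.3% of 19189 genes did.

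**Figure D2:**
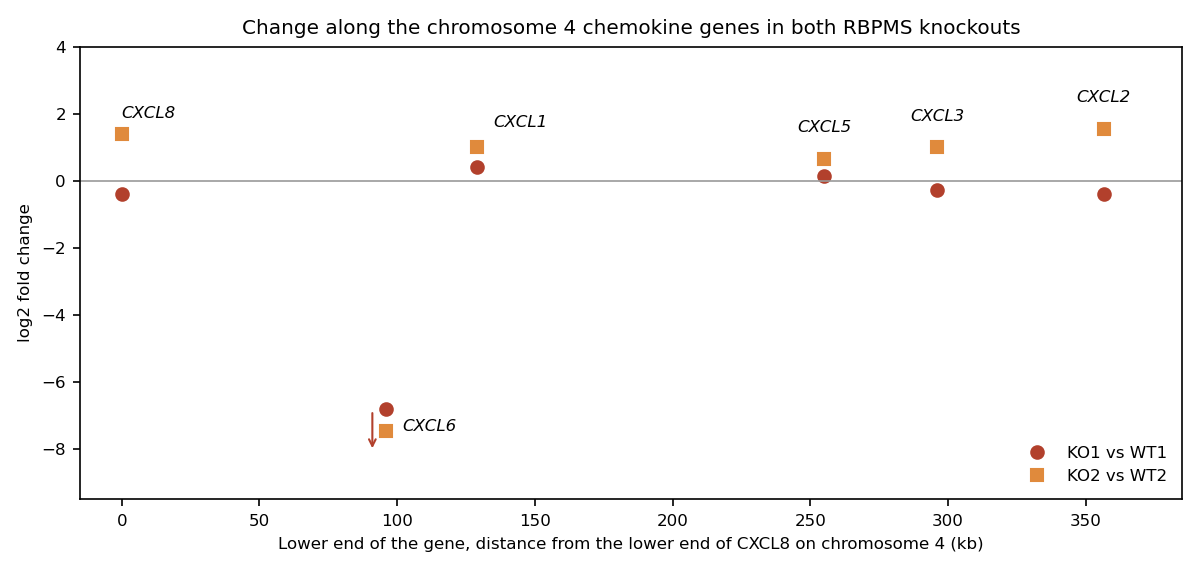
Log2 fold change of the 6 CXCR1 and CXCR2 ligands in KO1 (circles) and KO2 (squares) against the lower end of each gene, in kb from that of CXCL8 on chromosome 4. CXCL6 in KO1 is drawn at its bound of -6.81 with an arrow, since its counts lay at the floor; its neighbours CXCL8, 95.99 kb before it, and CXCL1, 32.9 kb after it, changed by 1.39 or less in size.

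Along chromosome 4 the near loss of CXCL6 was not shared by its neighbours. CXCL8 starts 95.99 kb before CXCL6, and CXCL1 starts 32.9 kb after it. PF4V1 and PF4, platelet chemokine genes of the same stretch, had 0 counts in every library of the knockout table, and PPBP had 0 to 21, so these genes gave no comparison.

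The second question was whether the splice forms of ANKRD10 moved the same genes. ANKRD10-2 overexpression lowered 6 of the 8 chemokine genes tested, CCL20 and CXCL1 most, while ANKRD10-1 lowered CXCL1 alone of 9 tested. With ANKRD10-2, 10.7% of 20177 genes rose and 9.25% fell. With ANKRD10-1, 3.50% of 20457 genes rose and 2.81% fell. The median log2 fold change of the chemokine genes tested was -0.67 with ANKRD10-2 and -0.12 with ANKRD10-1, beside medians of -0.01 and -0.004 over all genes. Both comparisons used the same Vector libraries.

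CCL20 was at 9.94, 9.64 and 10.7 CPM in Vector, at 6.65, 9.09 and 8.10 CPM with ANKRD10-1 and at 3.70, 3.97 and 4.59 CPM with ANKRD10-2. Every ANKRD10-2 library was below every other library of the table. CCL20 fell by 1.22 with ANKRD10-2 (SE 0.11, adjusted p = 4.15e-06), and its value with ANKRD10-1 was -0.30 (SE 0.11, adjusted p = 0.103). CXCL1 was at 41.1, 39.7 and 37.9 CPM in Vector, at 29.8, 28.6 and 31.9 CPM with ANKRD10-1 and at 20.9, 18.3 and 19.1 CPM with ANKRD10-2. The 3 groups did not overlap. CXCL1 fell by 0.94 with ANKRD10-2 (SE 0.07, adjusted p = 4.76e-07) and by 0.35 with ANKRD10-1 (SE 0.06, adjusted p = 0.00143).

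CXCL8 was at 114, 108 and 113 CPM in Vector, at 107.9, 100.3 and 105.3 CPM with ANKRD10-1 and at 68.8, 67.5 and 66.3 CPM with ANKRD10-2. It fell by 0.65 with ANKRD10-2 (SE 0.05, adjusted p = 6.83e-07), while the Vector and ANKRD10-1 libraries overlapped (-0.05, SE 0.05, adjusted p = 0.597). CXCL2 and CXCL3 had the same order at lower levels. CXCL2 was at 14.7, 12.9 and 12.6 CPM in Vector and at 7.98, 7.72 and 8.34 CPM with ANKRD10-2 (-0.66, SE 0.09, adjusted p = 0.000189). CXCL3 was at 7.10, 6.39 and 5.65 CPM in Vector and at 3.75, 3.69 and 3.01 CPM with ANKRD10-2 (-0.80, SE 0.14, adjusted p = 0.00107). Neither overlapped between the groups.

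CXCL5 fell least of the 6, from 128, 137 and 120 CPM in Vector to 99.1, 98.5 and 95.6 CPM with ANKRD10-2 (-0.31, SE 0.05, adjusted p = 0.00107). CXCL16 ran from 7.15 to 8.28 CPM in Vector and from 7.81 to 8.26 CPM with ANKRD10-2 (0.12, SE 0.10, adjusted p = 0.441). CXCL6 had 34, 22 and 37 counts in Vector and 10, 16 and 24 with ANKRD10-2 (-0.67, SE 0.35, adjusted p = 0.212). CCL5 had 14, 12 and 11 counts in Vector and 1, 16 and 0 with ANKRD10-1 (-1.18, SE 0.76, adjusted p = 0.404). Without ANKRD10-1 replicate 2, which held the 16 counts, its value was -4.36 (adjusted p = 0.0221). With ANKRD10-2, CCL5 had 8, 0 and 6 counts and was below the filter. CCL2 had 0 to 10 counts in every library of the table.

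Compared directly, ANKRD10-2 lay below ANKRD10-1 for the same 6 genes, where 7.26% of 20052 genes were called in either direction. The differences were -0.92 for CCL20 (SE 0.13, adjusted p = 0.00012), -0.68 for CXCL3, -0.60 for CXCL8, -0.59 for CXCL1 and -0.55 for CXCL2. CXCL5 differed by -0.19 (SE 0.05, adjusted p = 0.0249), a call that was lost without ANKRD10-1 replicate 1 (adjusted p = 0.114), ANKRD10-1 replicate 2 (0.0619), ANKRD10-1 replicate 3 (0.078) or ANKRD10-2 replicate 3 (0.111). RBPMS mRNA differed between these groups by 0.27 (SE 0.15, adjusted p = 0.306).

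**Figure D3:**
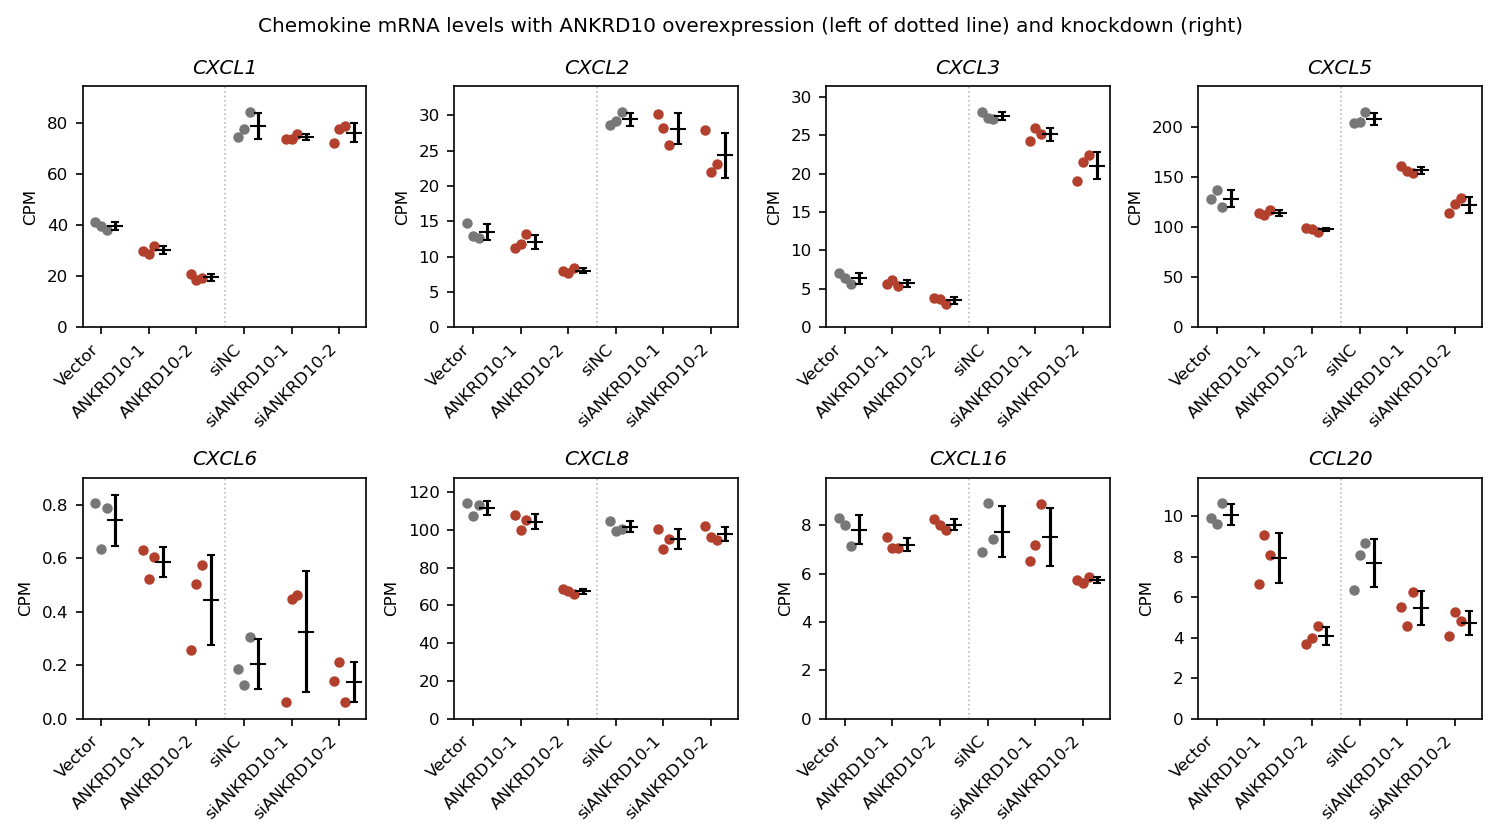
Level of 8 chemokine mRNAs with ANKRD10 overexpression, left of the dotted line, and knockdown, right of it, in CPM on linear axes from 0. Points are libraries, grey for the controls Vector and siNC and red for the treated groups, with mean and SD beside each set of 3; the tables were counted separately, and the ANKRD10-2 libraries were lowest of their table for CXCL1, CXCL2, CXCL3, CXCL5, CXCL8 and CCL20.

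Knockdown of the splice forms lowered CXCL5 and CCL20 with both siRNAs and CXCL2, CXCL3 and CXCL16 with siANKRD10-2. With siANKRD10-2, 5 of the 7 genes tested fell, where 18.7% of 18924 genes fell and 17.6% rose. With siANKRD10-1, 2 of 7 fell, where 5.52% of 18785 genes fell and 5.08% rose. The median of the 7 genes was -0.41 with siANKRD10-2 and -0.09 with siANKRD10-1, beside 0.001 and 0.004 over all genes. The siNC libraries were the control in both comparisons.

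CXCL5 had the largest change with siANKRD10-2, and CCL20 with siANKRD10-1. CXCL5 was at 205, 205 and 215 CPM in siNC, at 161, 156 and 154 CPM with siANKRD10-1 and at 114, 123 and 129 CPM with siANKRD10-2, and the 3 groups did not overlap. It fell by 0.41 with siANKRD10-1 (SE 0.06, adjusted p = 0.000116) and by 0.80 with siANKRD10-2 (SE 0.06, adjusted p = 3.93e-11). CCL20 was at 6.38, 8.10 and 8.66 CPM in siNC, at 5.53, 4.60 and 6.28 CPM with siANKRD10-1 and at 4.11, 5.26 and 4.82 CPM with siANKRD10-2. It fell by 0.49 (SE 0.14, adjusted p = 0.0334) and by 0.74 (SE 0.14, adjusted p = 0.000141). The siANKRD10-1 call for CCL20 was lost without siNC replicate 2 (-0.47, adjusted p = 0.129), siNC replicate 3 (-0.39, 0.12), siANKRD10-1 replicate 1 (-0.50, 0.1) or siANKRD10-1 replicate 2 (-0.38, 0.0941).

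CXCL8 had a mean of 101.7 ± 2.88 CPM (SD, n = 3) in siNC, and its siANKRD10-2 libraries were at 102.2, 96.5 and 94.96 CPM. CXCL1 was at 74.4, 77.7 and 84.2 CPM in siNC and at 72.1, 77.4 and 78.8 CPM with siANKRD10-2. Both genes overlapped between the groups. The log2 fold change of CXCL8 was -0.08, with a 95% interval from -0.20 to 0.03, and that of CXCL1 was -0.08, with an interval from -0.21 to 0.05. CXCL2 fell by 0.31 with siANKRD10-2 (SE 0.08, adjusted p = 0.00349) and CXCL3 by 0.41 (SE 0.07, adjusted p = 7.77e-05). CXCL16 was at 6.88, 8.91 and 7.41 CPM in siNC and at 5.74, 5.61 and 5.85 CPM with siANKRD10-2, and it fell by 0.46 (SE 0.12, adjusted p = 0.00433), or by 0.35 without siNC replicate 2 (adjusted p = 0.0505). CXCL6 had 6, 4 and 10 counts in siNC and 4, 6 and 2 with siANKRD10-2, and CCL2 and CCL5 had 0 to 10 counts in every knockdown library, so the 3 genes were below the filter.

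The siRNAs differed from each other in 4 of the 7 genes, where 37.0% of 18832 genes differed. With siANKRD10-2, levels were below those with siANKRD10-1 by -0.42 for CXCL16 (SE 0.13, adjusted p = 0.0133), -0.39 for CXCL5 (SE 0.06, adjusted p = 9.93e-06), -0.28 for CXCL3 and -0.23 for CXCL2 on the log2 scale. The CXCL16 call was lost without siANKRD10-1 replicate 3 (adjusted p = 0.117) and that of CXCL3 without siANKRD10-2 replicate 1 (0.0527). That of CXCL2 was lost without siANKRD10-1 replicate 1 (0.172), siANKRD10-2 replicate 2 (0.167) or siANKRD10-2 replicate 3 (0.145). RBPMS mRNA differed between these groups by 0.14 (SE 0.13, adjusted p = 0.421). The CXCL2 call was also lost with DESeq2 (adjusted p = 0.0656) and with upper quartile factors (0.0641). The sum of CXCL1, CXCL2 and CXCL3, which is mostly CXCL1, was not called by edgeR (-0.09, adjusted p = 0.166).

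**Figure D4:**
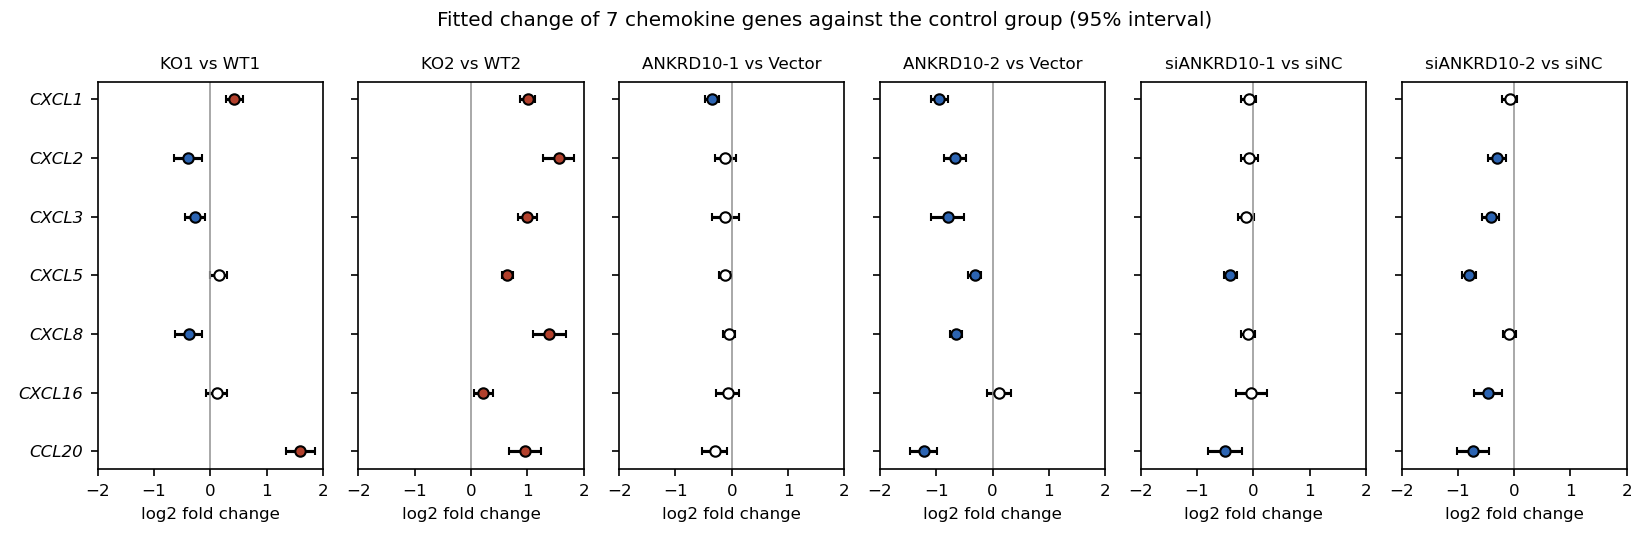
Log2 fold change of 7 chemokine genes against the control group of each comparison, with 95% intervals, from edgeR. Red points were called higher, blue points lower and open points were not called; CXCL6 is left out because of its low counts, KO2 holds only red points and ANKRD10-2 holds 6 blue points of 7.

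Set side by side, the genes had different patterns. CCL20 was called in 5 of the 6 comparisons with a control, and each of the other genes in at most 4. It rose in both knockouts and fell with ANKRD10-2 and with both siRNAs. CXCL1 rose in both knockouts, fell with both overexpressed forms and was not called with either siRNA. CXCL5 rose in KO2 and fell with ANKRD10-2 and both siRNAs. Across the 12 knockout libraries, CXCL8 tracked CXCL2 and CXCL3 (Pearson's r of log2 levels 0.971 and 0.935) more than CCL20 (0.222), and CXCL6 ran against CCL20 (-0.924) and CXCL1 (-0.896). In the 9 overexpression libraries, CXCL8 and CCL20 had r of 0.938, and in the 9 knockdown libraries 0.340. These libraries share their groups, so the correlations describe the group differences.

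Among 13157 genes over all 30 libraries, taken relative to each table's mean, the genes whose pattern was most like that of CXCL8 were CXCL2 (r = 0.953), CXCL3 (0.897) and TRPA1 (0.893), a cation channel gene. Within the knockdown table alone their r with CXCL8 was 0.423, 0.046 and -0.241. For CXCL1 they were NRP2 (0.891), a semaphorin and VEGF co-receptor, CHPF2 (0.889) and XXYLT1 (0.877), both enzymes that build sugar chains. Within the knockdown table their r with CXCL1 was 0.154, -0.430 and 0.043. CCL20 ranked 29 for CXCL1 with r of 0.801 and CXCL8 ranked 46 with 0.772.

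CSF3, which encodes the granulocyte growth factor G-CSF and is often induced together with these chemokines, rose in both knockouts by similar amounts. It was at 5.36, 5.10 and 5.22 CPM in WT1 and at 32.9, 27.2 and 44.6 CPM in KO1 (2.79, SE 0.16, adjusted p = 5.29e-07), and in KO2 it rose by 2.77 (SE 0.12, adjusted p = 8.07e-09). The difference between the knockouts was 0.01 (SE 0.23, adjusted p = 0.98), unlike that of CXCL8. CSF3 fell by 1.69 with ANKRD10-2 (SE 0.18, adjusted p = 1.84e-05), and its value was -0.27 with ANKRD10-1 (adjusted p = 0.291), 0.32 with siANKRD10-1 (adjusted p = 0.0505) and 0.10 with siANKRD10-2 (adjusted p = 0.491).

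Of 22 cytokines and receptors linked to the induction of chemokine genes, 19 were tested in the knockouts. In KO1, 7 rose and 2 fell, and in KO2, 11 rose and 5 fell. The list also held an antagonist, IL1RN, so its counts do not stand for inducers alone. Over all genes tested, 17.9% rose and 18.2% fell in KO1, and 19.3% rose and 19.2% fell in KO2. IL1B, which encodes interleukin-1 beta, rose from a mean of 29.5 to 120.0 CPM in KO1 (2.07, SE 0.08) and from 20.3 to 165 CPM in KO2 (3.07, SE 0.09). IL1A rose by 1.20 in KO1 and by 2.06 in KO2. IL6 rose in KO2 from 0.475 to 4.77 CPM and TNF, the tumour necrosis factor gene, from 0.160 to 1.18 CPM, whereas their values in KO1 were 0.92 (SE 0.54, adjusted p = 0.217) for IL6 and -1.27 (SE 0.67, adjusted p = 0.165) for TNF. With ANKRD10-2, 1 of 20 rose and 8 fell, among them IL1RN, the interleukin-1 receptor antagonist, by 1.01. With ANKRD10-1, 2 of 20 fell. With siANKRD10-2, 4 rose and 7 fell, with IL1RN at -1.36, IL6 at -1.23, TNF at 1.37 and LTB at 1.14. With siANKRD10-1, 2 rose and 1 fell. The shares over all genes were 10.7% and 9.25% with ANKRD10-2, 3.50% and 2.81% with ANKRD10-1, 17.6% and 18.7% with siANKRD10-2 and 5.08% and 5.52% with siANKRD10-1, higher and lower in turn.

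Of 16 NF-kappaB subunits and inhibitors, all of which were tested, 1 rose and 7 fell in KO1 and 6 rose and 2 fell in KO2. With ANKRD10-2, 1 rose and 6 fell, where 10.7% of all genes rose and 9.25% fell. With ANKRD10-1, 1 rose and 1 fell (3.50% and 2.81% of all genes). With siANKRD10-2, 5 rose and 2 fell (17.6% and 18.7%), and with siANKRD10-1, 3 fell (5.52%). Against 17.9% higher and 18.2% lower over all genes in KO1, and 19.3% and 19.2% in KO2, the counts of 1 rising in KO1 and 2 falling in KO2 were at or under the background. TNFAIP3, a feedback inhibitor of NF-kappaB, fell by 0.43 in KO1 (SE 0.07, adjusted p = 0.000851) and rose by 0.29 in KO2 (SE 0.08, adjusted p = 0.0104). It was named here after its values were seen, so its directions beside those of CXCL8 are no independent result. It fell by 0.39 with ANKRD10-2 (adjusted p = 6.48e-05) and rose by 0.38 with siANKRD10-2 (adjusted p = 1.59e-05), where CXCL8 was not called.

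Of 15 factors that control the decay of mRNAs rich in adenine and uridine, a class that includes many chemokine mRNAs, 5 rose and 4 fell in KO1 and 5 rose and 3 fell in KO2, where 17.9% to 19.3% of all genes were called in each direction, so that 3 of 15 is near the background. With ANKRD10-2, 3 rose and 3 fell (10.7% and 9.25% of all genes), with ANKRD10-1, 2 fell (2.81%), and with siANKRD10-1, 3 fell (5.52%). With siANKRD10-2, 2 rose and 9 fell, where 17.6% of all genes rose and 18.7% fell, and ZFP36L2, a decay factor, fell from a mean of 19.8 to 6.82 CPM (-1.56, SE 0.09, adjusted p = 1.27e-12). Of 12 proteases that trim or shed chemokines, 9 were tested in the knockouts, and 4 rose and 2 fell in KO1 and 4 rose and 4 fell in KO2, where 17.9% and 19.3% of all genes rose and 18.2% and 19.2% fell. The collagenase gene MMP13 fell by 2.21 in KO1, fell by 1.02 in KO2, fell by 1.45 with ANKRD10-1 and fell by 2.24 with ANKRD10-2, and it rose by 1.05 with siANKRD10-1. Over the list, 4 of 10 fell with ANKRD10-1 (2.81% of all genes) and 5 of 10 with ANKRD10-2 (9.25%). With siANKRD10-1, 1 rose and 4 fell (5.08% and 5.52%), and with siANKRD10-2, 5 rose and 1 fell (17.6% and 18.7%).

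Few receptors or other chemokines were present. The receptors of the neutrophil attractants were at group means of 0 to 0.0206 CPM for CXCR1 and 0.126 to 0.592 CPM for CXCR2. Of 22 receptors, 5 to 7 were tested in each comparison, and ACKR3, a scavenging receptor, rose by 0.31 in KO1 and by 0.17 in KO2. CXCR4 rose with ANKRD10-2, from a mean of 0.26 to 0.714 CPM. With siANKRD10-1, CCR10 fell by 1.24 and ACKR3 by 0.71, and with siANKRD10-2, CCR10 rose by 1.94 and CXCR5 fell by 0.85. Of 34 other chemokine genes, 3 or 4 were tested in each comparison. CXCL10, an interferon-induced attractant of T cells, fell in KO2 from a mean of 2.79 to 1.58 CPM (adjusted p = 0.0384), CXCL10 and CXCL11 fell with ANKRD10-2, and CCL28 fell in KO2 and with siANKRD10-2 at means under 1 CPM. Of the leukocyte markers tested, CD68 rose in KO2 from a mean of 0.0663 to 1.21 CPM and fell by 0.44 with ANKRD10-1, by 0.34 with ANKRD10-2 and by 0.46 with siANKRD10-2, where CSF1R rose by 0.92. The part of these markers in the chemokine changes was not tested.

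Of the epithelial markers tested, 5 rose and 5 fell in KO1, 4 rose and 6 fell in KO2, 4 of 15 rose with ANKRD10-1, 8 rose and 2 fell with ANKRD10-2, 5 of 15 fell with siANKRD10-1 and 10 of 15 fell with siANKRD10-2. Of all genes, 17.9% rose and 18.2% fell in KO1, 19.3% rose and 19.2% fell in KO2, 3.50% rose with ANKRD10-1, 10.7% rose and 9.25% fell with ANKRD10-2, 5.52% fell with siANKRD10-1 and 18.7% fell with siANKRD10-2. The summed markers ranged from 6770 to 6901 CPM in siNC and from 4139 to 4287 CPM with siANKRD10-2, the groups between which CXCL5 fell, and the part of this shift in the chemokine values was not tested. KRT13, a keratin of differentiated urothelium, fell by 2.65 in KO1 and by 4.64 in KO2. In KO1, KRT14 rose by 3.33, from a mean of 0.629 to 6.29 CPM, and GATA3 fell by 1.35. KRT5 fell by 1.06 with siANKRD10-2. The markers KRT20, UPK1A, UPK1B and UPK3A had group means of at most 0.308 CPM. In bulk RNA, fewer cells of a kind and less mRNA per cell cannot be told apart.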

How the data were processed

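The authors prepared stranded poly(A) libraries from 5637 cells, sequenced them and deposited raw counts of reads per gene in 3 tables. The submitters' processing notes name Trimmomatic 0.36, featureCounts, Subread 1.5.1 and GRCh38, and the methods also name HISAT2 and StringTie. Whether reads or fragments were counted is not given in the sources used here; 46.3 to 47.9% of the counts from 1 to 20 were even in the knockout table, 67.4 to 68.4% with overexpression and 70.1 to 75.9% with knockdown. Groups came from the labels, and nothing says that replicates were separate cultures, so p-values measure the spread between these libraries.

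The knockout table was joined by Ensembl identifier and the others by symbol. CPM is the count scaled to a library total of 1000000. Genes were filtered with filterByExpr (minimum count 10, total 15), normalised by TMM and tested with edgeR 4.0.16 in R 4.3.3 by the quasi-likelihood test (prior count 0.125), with only the compared groups in each fit and Benjamini-Hochberg adjustment over all genes tested. The difference of the knockout effects was an interaction over 12 libraries. DESeq2 1.42.0 was an alternative. On simulated counts, 73.1 to 79.1% of genes changed 1.5-fold were recovered in the comparisons of 2 groups and 28.4% in the interaction. The simulation gave all genes the same dispersion and changed only genes above a floor in mean count. It therefore does not cover genes with low counts or with more spread between libraries. Replicates of a group differed by more than counting noise (chi-square per degree of freedom 4.44 to 21.3), so none was counted as a duplicate. Floors cover counting error only, and 95% intervals come from the edgeR fit and include the spread between libraries. Members and gene lists were chosen with earlier results of these data known. Named list genes changed by at least 1 in size on the log2 scale, with an adjusted p under 0.05 and at least 1 CPM in either group. Other list genes, TNFAIP3 among them, were added after their values were seen. Protein sequences were not analysed here.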

Additional observations from a re-analysis of the deposited data

Results flagged for a closer look

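The chemokine effects of the knockouts differed from each other by the interaction test of edgeR. KO1 minus KO2 was -0.58 for CXCL1, -1.95 for CXCL2, -1.28 for CXCL3, -0.50 for CXCL5, -1.78 for CXCL8 and 0.64 for CCL20 on the log2 scale. CXCL2, CXCL3 and CXCL8 fell in KO1 and rose in KO2, whereas CXCL1 and CCL20 rose in both. With all 6 WT libraries as the control, edgeR no longer called the KO1 falls of CXCL8 (adjusted p = 0.433) and CXCL2 (0.139). That of CXCL3 was still called (0.0145).

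The overexpressed splice forms differed when compared directly, with ANKRD10-2 minus ANKRD10-1 at -0.59 for CXCL1, -0.55 for CXCL2, -0.68 for CXCL3, -0.19 for CXCL5, -0.60 for CXCL8 and -0.92 for CCL20. The siRNAs also differed, with siANKRD10-2 minus siANKRD10-1 at -0.23 for CXCL2, -0.28 for CXCL3, -0.39 for CXCL5 and -0.42 for CXCL16. The CXCL2 call between the siRNAs was lost with DESeq2 (adjusted p = 0.0656) and with upper quartile factors (0.0641). The sum of CXCL1, CXCL2 and CXCL3, which is mostly CXCL1, was not called by edgeR (-0.0944, adjusted p = 0.166). The groups of 3 libraries were too small for a test of single outlying libraries.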

How the results depend on the processing

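The sources of the changes given here were not tested. With edgeR calls limited to changes of at least 1 in size on the log2 scale, there remained 2 chemokine genes called in KO1, 5 in KO2, 1 with ANKRD10-2 and 3 in the difference of the knockout effects, and 0 with ANKRD10-1, with either siRNA, between the splice forms, between the siRNAs and between the controls. Over all genes there were 1149 in KO1, 1095 in KO2, 80 with ANKRD10-1, 241 with ANKRD10-2, 69 with siANKRD10-1, 500 with siANKRD10-2, 72 between the splice forms, 514 between the siRNAs, 16 between the controls and 1059 in the difference. Between the controls, DESeq2 called 3 chemokine genes and 571 genes in all, no filter on low counts gave 0 and 88, and a fit with all libraries of the table gave 0 chemokine genes, with CXCL8 at an adjusted p of 0.109 and 0.157; at an unadjusted p under 0.05, edgeR had 1 higher and 3 lower. In KO1, DESeq2 gave CXCL8 an adjusted p of 0.0526. In KO2, CXCL16 missed the threshold with upper quartile factors (adjusted p = 0.0606) and with no filter (0.0837).

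The summed counts of CXCL1, CXCL2 and CXCL3 changed by 0.19 in KO1 and by -0.0944 between the siRNAs. These signs were opposite to those of CXCL2 and CXCL3 in KO1 and of CXCL1 between the siRNAs. CXCL1 makes up most of the sum, which therefore does not check CXCL2 or CXCL3 by themselves. Leaving out 1 library turned values near 0: CXCL16 with siANKRD10-1 to 0.0705, 0.0566 and 0.0024 (range -0.1797 to 0.0705), CXCL1 between the siRNAs to -0.0015, -0.0099, -0.0088 and -0.0144 (range -0.0144 to 0.0488), CXCL8 between them to -0.0407 and -0.0185 (range -0.0407 to 0.0495), CXCL16 between the controls to 0.0215 (range -0.1155 to 0.0215), and CXCL6 in the difference of knockout effects to 3.53 (range -4.01 to 3.53). With 1 library left out, the called chemokine genes numbered 4 to 6 in KO1, 7 to 8 in KO2, 1 to 2 with ANKRD10-1, 6 with ANKRD10-2, 1 to 2 with siANKRD10-1, 4 to 5 with siANKRD10-2, 5 to 6 between the splice forms, 3 to 4 between the siRNAs, 0 to 2 between the controls and 5 to 6 in the difference. All genes called then numbered 5032 to 6400, 5942 to 6231, 700 to 1549, 2617 to 3533, 949 to 2430, 5643 to 6344, 694 to 1396, 5606 to 7101, 71 to 133 and 3782 to 4308 in the same order.

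Whether the replicate numbers pair the libraries was not settled. Same-numbered libraries had correlations of their deviations from -0.059 to 0.214, over 0.1 in 5 of 18 pairs and in no comparison throughout. For KO2 against WT2 they were 0.101, 0.098 and 0.070, while differently numbered pairs lay from -0.086 to -0.009. For ANKRD10-2 against Vector they were 0.083, 0.173 and 0.202, beside -0.198 to 0.057. For KO1 against WT1 they were 0.113, 0.011 and -0.059. With a replicate block, 6 chemokine genes were called in KO1, 8 in KO2, 1 with ANKRD10-1, 6 with ANKRD10-2, 2 with siANKRD10-1 and 5 with siANKRD10-2, the same numbers as without it. Without the block, the shares of all genes higher and lower were 17.9% and 18.2% in KO1 and 19.3% and 19.2% in KO2. They were 3.50% and 2.81% with ANKRD10-1, 10.7% and 9.25% with ANKRD10-2, 5.08% and 5.52% with siANKRD10-1 and 17.6% and 18.7% with siANKRD10-2. The shares with the block are not given here.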
